A study of Mus musculus with 29 samples.

Results

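The comparison described here asked what loss of Mysm1 did to the transcriptome of CD150-negative bone marrow progenitors in mice that lacked Puma on both sides. Its members were chosen by their labels: the CD150-negative libraries of Mysm1-/-Puma-/- mice (B1, B3 and B5) and those of Puma-/- mice (C2, C3 and C5), which makes 6 of the 29 RNA-seq libraries in the series. All mice were C57BL/6, 8 to 12 weeks old and of both sexes. Lineage-negative marrow cells were sorted as cKit+Sca1+ cells and split by CD150, the surface receptor that the gene Slamf1 encodes and a marker of long-term stem cells. Values are set beside 3 Mysm1-/-Puma+/- and 3 wild-type libraries of the same gate, and beside 7 Mysm1-/-Puma-/- and 2 Puma-/- libraries of the CD150-positive gate. The labels name neither the exons missing from the mutant alleles nor separate mice for the libraries of 1 group, so p-values measure the spread between libraries, which may be technical. In these bulk samples, fewer cells of a type and less RNA per cell cannot be told apart.

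MYSM1 is a chromatin enzyme that removes ubiquitin from histone H2A, and mice without it have too few blood cells of several lineages. p53, encoded by Trp53, is a transcription factor that answers DNA damage and other stress by raising genes for cell cycle arrest, for cell death and for its own control. Puma, encoded by Bbc3, is one of the death genes among its targets, a BH3-only protein that binds the survival proteins of the Bcl2 family. Where Puma is missing, blood progenitors in which p53 is active lack one of the main routes to apoptosis.

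The 6 libraries held between 36884159 and 43537701 counts, against 12304713 to 54339749 over the 29. Library B1 stood apart on several measures. It had the highest normalisation factor of the 12 CD150-negative libraries (1.17) and the highest level of olfactory, vomeronasal and trace amine receptor genes, which serve here as a measure of background reads (5671 CPM in B1, 2848 in B3 and 3127 in B5, against 2061, 4063 and 2808 in C2, C3 and C5). C2 had the lowest such level of the 6, so counts are also given without B1 and C2. Slamf1 lay at 1.96, 0.591 and 1.14 normalised CPM in Mysm1-/-Puma-/- libraries and at 2.36, 1.7 and 1.44 in Puma-/- libraries, while Kit averaged 538 ± 72.6 in Mysm1-/-Puma-/- libraries and 573 ± 73.2 in Puma-/- libraries (SD, n = 3 each). Levels of T cell, B cell and red cell genes are given beside the results.

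Mysm1 itself had 74.1, 67.4 and 69.6 normalised CPM in the Mysm1-/-Puma-/- libraries, against 96.2, 93.3 and 85.1 in the Puma-/- libraries. The groups did not overlap, but the difference was small and did not pass the test (log2 fold change -0.38, SE 0.15, adjusted p = 0.327). Bbc3 had 20.2, 26 and 29.7 normalised CPM in Mysm1-/-Puma-/- cells, against 6.14, 5.21 and 5.34 in Puma-/- cells, with every Mysm1-/-Puma-/- library above every Puma-/- library. Bbc3 rose by 2.18 on the log2 scale (SE 0.28, adjusted p = 0.000464), although both groups are labelled Puma-/-. Counts summed over a whole gene also take in exons that a mutant allele still transcribes, so neither gene checks the genotypes. Of the 107 tested genes within 10 Mb of Mysm1 on chromosome 4, none was called in this edgeR test, against 1.35% of all tested genes. At so small a share, the count says little about this region.

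Across 21168 tested genes, 285 passed an adjusted p of 0.05 (1.35% of the genes, while 2339 genes or 11% had an unadjusted p under 0.05), of which 87 were higher (0.411%) and 198 lower (0.935%) in Mysm1-/-Puma-/- cells. The genes that rose were led by p53 targets, and 27 of the 87 stand in the p53 lists. The genes that fell were of another kind: 120 of the 198 were clustered histone genes with H2afx (54), ribosomal protein genes (35), mitosis genes (28) or DNA replication genes (3). Among called genes, the median gene called higher had a log2 fold change of 1.16, and the median gene called lower one of -0.88. Both medians are over genes that passed the threshold, so they depend on it and on the genes' levels. The count of calls rested in part on single libraries: it was 148 without C2, 163 without B1, 171 without B3, 184 without C3 and 97 without both B1 and C2, and 465 without A3 of the Mysm1-/-Puma+/- group, which shares the estimate of the spread.

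**Figure D1:**
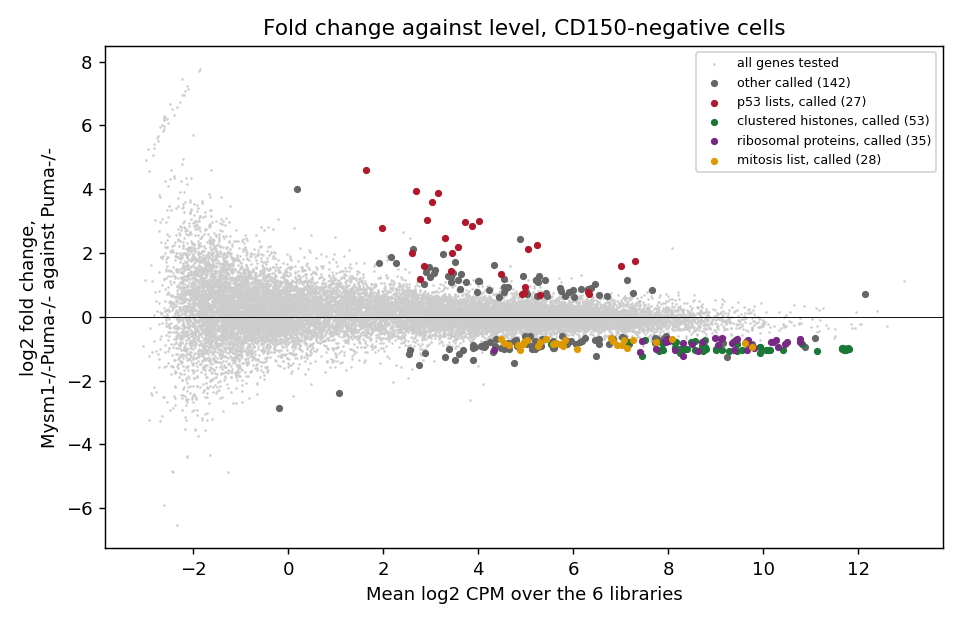
Log2 fold change of Mysm1-/-Puma-/- against Puma-/- CD150-negative libraries (vertical axis) by mean log2 CPM over the 6 libraries (horizontal axis), 1 point per tested gene. Coloured points passed the adjusted p of 0.05: the 27 p53 list genes lie above 0, and the 53 clustered histone, 35 ribosomal protein and 28 mitosis genes lie below 0, mostly at high levels.

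Of 89 tested genes known as p53 targets or p53 regulators, 27 rose and none fell in Mysm1-/-Puma-/- cells, and their median log2 fold change was 0.52, against 0.03 over all tested genes. The transcript of p53 itself was level, with 47.6, 51.5 and 53.4 normalised CPM in Mysm1-/-Puma-/- cells and 50.8, 59.4 and 54.7 in Puma-/- cells (log2 fold change -0.11, SE 0.15, adjusted p = 0.919), and these groups overlapped. The 27 were spread over every role: 5 of 14 arrest genes, 8 of 17 death genes, 3 of 13 feedback genes, 4 of 21 repair and metabolic genes and 8 of 25 surface and secreted genes, with Ccng1 among the arrest genes also standing in the feedback list. In 47 of the 89 every Mysm1-/-Puma-/- library lay above every Puma-/- library, against 8.58% of all tested genes. These lists were chosen with earlier results of these data known.

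The windows of 4 called p53 targets held, within the 250 bases before the annotated start, a decamer that matches the p53 half-site consensus. These windows are shown for their sequence alone. The sequences are from RefSeq, build GRCm38.p6, written 5′ to 3′ on the gene's strand with the half-site matches in capitals. Windows were at hand for 20 of the 27 called genes (29 windows); 4 of these windows (13.8%) held a match, against 10 of 62 windows (16.1%) of the p53 list genes that were not called and 7.13% of all 32851 windows. The half-site pattern reads the same on both strands. A match describes the letters and is not evidence of binding, and p53 sites farther from the start lie outside these windows.
Cdkn1a (chr17:29090729-29090978, plus strand): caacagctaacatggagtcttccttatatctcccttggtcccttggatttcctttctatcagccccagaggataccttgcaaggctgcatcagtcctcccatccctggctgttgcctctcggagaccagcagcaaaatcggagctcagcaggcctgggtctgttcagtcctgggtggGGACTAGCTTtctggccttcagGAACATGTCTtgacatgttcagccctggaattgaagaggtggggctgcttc
Ccng1 (chr11:40755287-40755536, minus strand): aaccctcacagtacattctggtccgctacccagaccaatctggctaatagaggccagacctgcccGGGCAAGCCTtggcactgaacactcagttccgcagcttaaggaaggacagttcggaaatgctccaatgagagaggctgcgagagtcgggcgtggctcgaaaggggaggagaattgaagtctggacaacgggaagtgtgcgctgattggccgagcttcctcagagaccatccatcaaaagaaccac
Bax (chr7:45466899-45467148, minus strand): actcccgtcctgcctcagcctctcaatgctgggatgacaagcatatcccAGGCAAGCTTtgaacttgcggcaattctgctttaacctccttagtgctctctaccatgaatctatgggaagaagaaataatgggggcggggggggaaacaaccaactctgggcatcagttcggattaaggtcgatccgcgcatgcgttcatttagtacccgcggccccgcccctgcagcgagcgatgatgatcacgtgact
Aen (chr7:78895808-78896057, plus strand): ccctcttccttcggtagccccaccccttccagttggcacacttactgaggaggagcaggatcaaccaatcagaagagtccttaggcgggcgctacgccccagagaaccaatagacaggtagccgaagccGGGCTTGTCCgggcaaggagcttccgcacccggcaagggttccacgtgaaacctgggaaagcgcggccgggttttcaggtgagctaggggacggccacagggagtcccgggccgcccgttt
The Cdkn1a window shown, the first of 2 for this gene in the table by number of matches, holds 2 half-site matches with 12 bases between them. The other 3 windows hold 1 match each.

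Among the arrest genes, Cdkn1a, the p21 inhibitor of cyclin-dependent kinases, had 25.5, 32.3 and 26.8 normalised CPM in Mysm1-/-Puma-/- libraries, against 1.5, 2.95 and 2.59 in Puma-/- libraries. The groups lay far apart, and Cdkn1a rose by 3.59 on the log2 scale (SE 0.23, adjusted p = 8.94e-08). Psrc1, a microtubule-associated protein, had 78.4, 85.7 and 82 in Mysm1-/-Puma-/- cells, against 16.7, 18.1 and 16.6 in Puma-/- cells, with little spread within either group. Psrc1 rose by 2.26 on the log2 scale (SE 0.13, adjusted p = 3.68e-08). Ccng1, cyclin G1, was the most abundant of the 5 in CPM, with 199, 224 and 249.9 in Mysm1-/-Puma-/- cells, against 75.4, 67.7 and 82.3 in Puma-/- cells. Ccng1 rose by 1.58 on the log2 scale (SE 0.13, adjusted p = 3.52e-06). Phlda3, an inhibitor of AKT signalling, had 22.5, 25.5 and 21.6 normalised CPM in Mysm1-/-Puma-/- cells, against 5.05, 3.66 and 3.73 in Puma-/- cells, again without overlap (log2 fold change 2.48, SE 0.22, adjusted p = 4.4e-06). Btg2, an antiproliferative gene, had 35.2, 61.8 and 37.7 in Mysm1-/-Puma-/- cells, against 23.3, 20.2 and 26.3 in Puma-/- cells, the B3 library being the highest. Btg2 rose by 0.95 on the log2 scale (SE 0.21, adjusted p = 0.0259), and its call ended without B3 (adjusted p = 0.193), C2, C3 or C5. The 9 other arrest genes did not pass, among them Plk2 (1.54 with adjusted p = 0.0516) and Gadd45a (0.14 with adjusted p = 0.958).

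Of the other 16 death genes, 7 rose in these Puma-/- cells. Eda2r, which encodes a death-domain receptor for ectodysplasin A2, had 21.3, 25.8 and 27.6 normalised CPM in Mysm1-/-Puma-/- libraries, against 1.43, 1.24 and 2.18 in Puma-/- libraries, and rose by 3.94 on the log2 scale (SE 0.36, adjusted p = 6.75e-06). Pmaip1, which encodes the BH3-only protein Noxa, had 7.89, 14 and 15.2 in Mysm1-/-Puma-/- cells, against 3.71, 3.07 and 2.43 in Puma-/- cells. B1 was the lowest of its group and still above every Puma-/- library, and Pmaip1 rose by 2.01 on the log2 scale (SE 0.33, adjusted p = 0.00359). Bax, the pore-forming death effector, had 29.2, 38.2 and 39.9 in Mysm1-/-Puma-/- cells, against 15.8, 13.9 and 12.7 in Puma-/- cells, without overlap. Bax rose by 1.34 on the log2 scale (SE 0.16, adjusted p = 0.000283). Trp53inp1, a nuclear protein that acts with p53, had 254, 389 and 248 in Mysm1-/-Puma-/- cells, against 80.8, 74.1 and 108 in Puma-/- cells, with B3 the highest of its group. Trp53inp1 rose by 1.76 on the log2 scale (SE 0.23, adjusted p = 0.000586). The remaining calls were Zfp365 (2.79), Dapk1, a death-associated kinase (0.70), and Casp1, the inflammatory caspase (0.69), given as log2 fold changes. Apaf1 (0.36 with adjusted p = 0.327), the apoptosome scaffold, and Fas (1.13 with adjusted p = 0.441), the death receptor, did not pass.

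**Figure D2:**
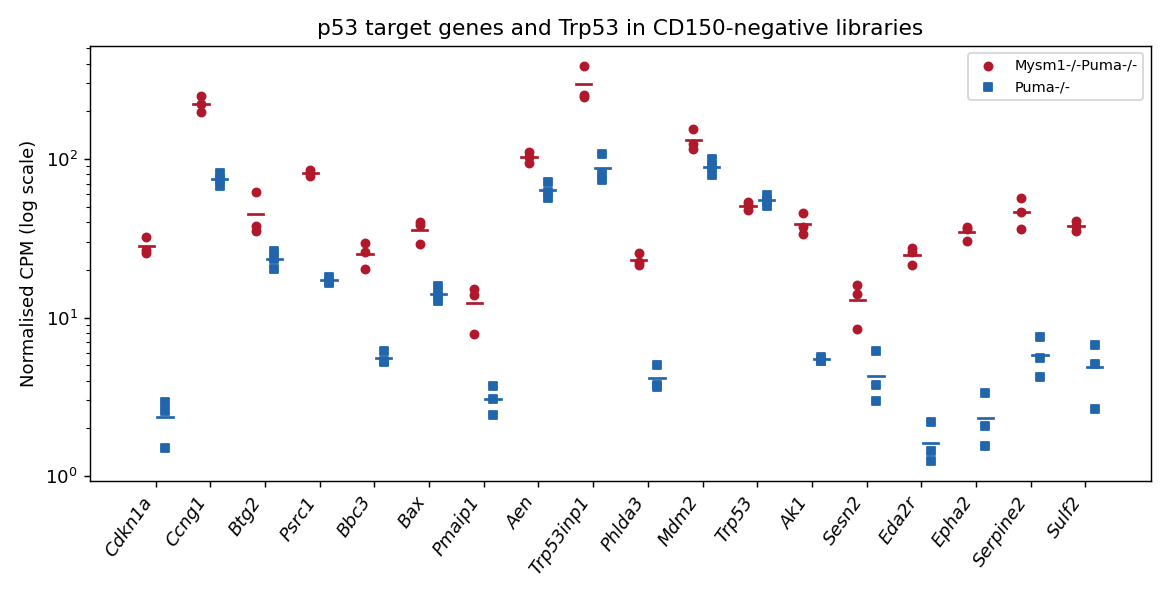
Normalised CPM (vertical axis, log scale) of 17 p53 target genes and Trp53 in each of the 3 Mysm1-/-Puma-/- libraries (circles, left) and 3 Puma-/- libraries (squares, right), with bars at the group means. The groups do not overlap for any of the 17 target genes, including Mdm2, which did not pass the test, and they overlap for Trp53. The 17 were picked without a rule from the 89 p53 list genes, of which 47 were higher and 3 lower without overlap.

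In the feedback list the 3 calls were Ccng1 and a pair of long noncoding RNAs. Pvt1 had 23.7, 25.2 and 15.9 normalised CPM in Mysm1-/-Puma-/- cells, against 1.79, 2.77 and 3.41 in Puma-/- cells, and rose by 3.03 on the log2 scale (SE 0.36, adjusted p = 0.000283). Gm16197, the annotation's name for the p53-induced lincRNA-p21 beside Cdkn1a, had 23.4, 24.1 and 17.4 in Mysm1-/-Puma-/- cells, against 5.76, 5 and 5.48 in Puma-/- cells, without overlap (log2 fold change 2.00, SE 0.25, adjusted p = 0.000392). Since the counting's use of strand is not given, reads of Gm16197 and of overlapping transcripts cannot be told apart. Mdm2, the ubiquitin ligase that degrades p53, had 115, 154 and 124 in Mysm1-/-Puma-/- cells, against 89.7, 79.5 and 100.2 in Puma-/- cells. Its groups did not overlap, but it missed the threshold (log2 fold change 0.55, SE 0.14, adjusted p = 0.0585). Mdm4 (0.52 with adjusted p = 0.263), the partner of Mdm2, and Ppm1d (0.08 with adjusted p = 0.967), the phosphatase Wip1, did not pass either.

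Of the repair and metabolic targets, Ak1, a cytosolic adenylate kinase, had 33.8, 37.4 and 45.6 normalised CPM in Mysm1-/-Puma-/- libraries, against 5.64, 5.36 and 5.34 in Puma-/- libraries. Its unadjusted p was the smallest of all tested genes, and Ak1 rose by 2.84 on the log2 scale (SE 0.16, adjusted p = 3.68e-08). Sesn2, a stress sensor that restrains mTORC1, had 8.46, 16 and 14.1 in Mysm1-/-Puma-/- cells, against 3.74, 6.17 and 2.97 in Puma-/- cells, with B1 the lowest of its group. Sesn2 rose by 1.58 on the log2 scale (SE 0.28, adjusted p = 0.00614). Aen, a nuclease induced by p53, had 94.9, 104 and 111 in Mysm1-/-Puma-/- cells, against 71.8, 62.2 and 56.6 in Puma-/- cells (log2 fold change 0.70, SE 0.14, adjusted p = 0.0141), and its call ended without B3, C3 or C5 (adjusted p = 0.127 without C5). Ercc5, an excision repair nuclease, rose by 0.75 on the log2 scale (SE 0.17, adjusted p = 0.0323), a call that ended when any 1 of the 6 libraries was left out (adjusted p = 0.193 without C2). The glutaminase gene Gls2 (-1.15 with adjusted p = 0.638) and the ribonucleotide reductase gene Rrm2b (0.04 with adjusted p = 0.989) did not pass.

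The surface and secreted targets held some of the largest differences. Epha2, an ephrin receptor kinase, had 36.1, 37.5 and 30.4 normalised CPM in Mysm1-/-Puma-/- cells, against 3.36, 2.06 and 1.55 in Puma-/- cells, and rose by 3.89 on the log2 scale (SE 0.25, adjusted p = 8.77e-08). Serpine2, a secreted protease inhibitor, had 36, 46.7 and 56.6 in Mysm1-/-Puma-/- cells, against 7.52, 4.24 and 5.56 in Puma-/- cells (log2 fold change 3.01, SE 0.21, adjusted p = 2.03e-07). Sulf2, an extracellular sulfatase, had 35.3, 40.9 and 38.1 in Mysm1-/-Puma-/- cells, against 2.67, 6.73 and 5.12 in Puma-/- cells (log2 fold change 2.98, SE 0.26, adjusted p = 3.91e-06). In all 3 genes every Mysm1-/-Puma-/- library was well above the highest Puma-/- library. Mmp2, a matrix metalloproteinase, had 67.3, 71.7 and 69.1 in Mysm1-/-Puma-/- cells, against 16.1, 14.7 and 16.9 in Puma-/- cells, and rose by 2.13 on the log2 scale (SE 0.21, adjusted p = 1.63e-05). Tnfsf4, the ligand of OX40, had 16.4, 17.5 and 20.6 in Mysm1-/-Puma-/- cells, against 0, 1.32 and 0.927 in Puma-/- cells, so it was listed at 0 in C2 and its fitted log2 fold change of 4.61 depends on the prior count. Gdf15, a secreted cytokine and p53 target, stayed at or below 1.24 normalised CPM in all 6 libraries (log2 fold change 0.80, SE 1.09, adjusted p = 0.919).

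Several genes outside the p53 lists rose with them. Ier5, an immediate early gene, had 59.4, 68.5 and 52.8 normalised CPM in Mysm1-/-Puma-/- cells, against 21.6, 26.2 and 27.2 in Puma-/- cells, and rose by 1.27 on the log2 scale (SE 0.16, adjusted p = 0.000464). Fat1, a giant cadherin, had 12.5, 11.4 and 15.7 in Mysm1-/-Puma-/- cells, against 1.76, 4.8 and 2.48 in Puma-/- cells (log2 fold change 2.13, SE 0.40, adjusted p = 0.0089), and its call ended without C2 (adjusted p = 0.0631) or without C5. Gas6, a ligand of TAM receptors (1.13), Tnfsf8, the ligand of CD30 (1.98), and Cox6b2, a subunit of cytochrome c oxidase (1.61), were also called, and were picked for mention after their values were seen. Ly6a, which encodes the gate antigen Sca1, had 14.7, 26.3 and 14.1 in Mysm1-/-Puma-/- cells, against 6.5, 7.31 and 10.9 in Puma-/- cells. Ly6a rose by 1.16 on the log2 scale (SE 0.27, adjusted p = 0.0385) and was the only call in edgeR among 40 stem cell genes, whose median log2 fold change was -0.04 (voom called 1 higher and 1 lower). The call ended in 5 of 12 fits that left out 1 library, namely without B1, B3, C2, C3 or D4 (adjusted p = 0.285 without B3).

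Outside p53's own targets, no gene of the death lists was called in edgeR, and other tools called few. None of 17 other Bcl2 family genes passed in edgeR. At an unadjusted p under 0.05, 2 were higher and 5 lower, against 11% of all tested genes in either direction. DESeq2 called 1 higher and 1 lower, and voom and limma-trend each called 1 higher. Bcl2l11, the BH3-only protein Bim, had 32.4, 38.5 and 27 normalised CPM in Mysm1-/-Puma-/- cells, against 19.7, 21.3 and 22.8 in Puma-/- cells (log2 fold change 0.62, SE 0.17, adjusted p = 0.112). Bcl2, the founding survival gene, had 149, 206 and 177 in Mysm1-/-Puma-/- cells and 179, 157 and 175 in Puma-/- cells (log2 fold change 0.05, SE 0.14, adjusted p = 0.971), and its groups overlapped. Mcl1, another survival gene, had 234, 297 and 258 in Mysm1-/-Puma-/- cells and 246, 228 and 247 in Puma-/- cells, also with overlap (log2 fold change 0.13, SE 0.13, adjusted p = 0.849). None of 23 caspase and death pathway genes passed in edgeR (4 at an unadjusted p under 0.05), with 1 called higher by DESeq2, by voom and by limma-trend. Casp12 came nearest to the threshold (log2 fold change 0.86, SE 0.21, adjusted p = 0.0537). Of 37 writers and erasers of ubiquitin on H2A, none passed in edgeR (4 at an unadjusted p under 0.05, all lower), and DESeq2 called 1 lower. Bap1, another deubiquitinase of H2A, had 62.8, 70.5 and 75.6 in Mysm1-/-Puma-/- cells, against 85.7, 76.5 and 92.7 in Puma-/- cells (log2 fold change -0.29, SE 0.13, adjusted p = 0.422).

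The broadest fall was in genes for the histones that are made in S phase. Of 34 tested replication-dependent histone genes, 31 fell and none rose, and the median log2 fold change was -0.99. Clustered histone genes took 3.34%, 4.27% and 4.49% of the counts in Mysm1-/-Puma-/- libraries, against 7.05%, 7.64% and 7.45% in Puma-/- libraries. B1 was the lowest, and the groups were well apart. Over every clustered histone gene in the files, 53 of 63 tested fell. The near-identical coding sequences of these genes share reads, and how the counting treated reads with several matches is not given, so the number of genes is uncertain while their summed share is less so. Most of these transcripts lack a poly(A) tail, and the libraries were made from total RNA after removal of ribosomal RNA.

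Hist1h1b, a linker histone, had 87.4, 121 and 135 normalised CPM in Mysm1-/-Puma-/- libraries, against 256, 301 and 256 in Puma-/- libraries, and fell by 1.24 on the log2 scale (SE 0.16, adjusted p = 0.000464). Hist1h3d, an H3 gene, had 159, 224 and 240.3 in Mysm1-/-Puma-/- cells, against 458, 459 and 451 in Puma-/- cells, and fell by 1.13 on the log2 scale (SE 0.15, adjusted p = 0.000568). Hist1h2ag, an H2A gene and one of the most abundant, had 1850.3, 2468 and 2697 in Mysm1-/-Puma-/- cells, against 4751, 4755 and 4847 in Puma-/- cells (log2 fold change -1.03, SE 0.16, adjusted p = 0.0022). In all these genes every Puma-/- library lay above every Mysm1-/-Puma-/- library. Hist1h3b (-1.05) and Hist1h1a (-1.01) changed by like amounts on the log2 scale. The H2A.X gene H2afx, outside the clusters, was also called (log2 fold change -0.94, SE 0.17, adjusted p = 0.00639).

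The promoters of 3 called histone genes are shown for 3 sequence elements, each found in only a part of this family's windows. They are the 250 bases before the RefSeq start in build GRCm38.p6, 5′ to 3′ on the gene's strand, with 3 elements in capitals. These are CCAAT on either strand, which reads ATTGG where it lies on the other strand. The sequence TATAAA was searched on the gene's strand at any position in the window. The octamer ATTTGCAT was searched on either strand, and its complement is ATGCAAAT. Matches do not overlap in the 3 windows shown. RefSeq now names these genes H1f5, H3c4 and H2bc3.
Hist1h1b (chr13:21780626-21780875, minus strand): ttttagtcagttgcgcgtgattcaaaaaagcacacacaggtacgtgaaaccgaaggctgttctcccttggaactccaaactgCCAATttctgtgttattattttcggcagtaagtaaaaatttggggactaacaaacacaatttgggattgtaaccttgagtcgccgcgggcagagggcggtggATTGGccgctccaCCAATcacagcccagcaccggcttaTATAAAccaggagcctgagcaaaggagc
Hist1h3d (chr13:23575513-23575762, plus strand): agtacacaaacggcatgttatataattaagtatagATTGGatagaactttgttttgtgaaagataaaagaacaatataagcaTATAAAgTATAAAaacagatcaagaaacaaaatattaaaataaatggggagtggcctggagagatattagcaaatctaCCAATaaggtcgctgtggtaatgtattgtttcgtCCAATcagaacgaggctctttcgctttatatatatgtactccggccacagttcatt
Hist1h2bb (chr13:23746484-23746733, plus strand): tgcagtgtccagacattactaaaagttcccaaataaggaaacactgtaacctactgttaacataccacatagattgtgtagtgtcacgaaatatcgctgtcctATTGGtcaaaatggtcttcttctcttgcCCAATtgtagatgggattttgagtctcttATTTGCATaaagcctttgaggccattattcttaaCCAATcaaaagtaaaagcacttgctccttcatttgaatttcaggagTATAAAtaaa
Windows matched 49 of the 53 histone genes that fell (50 windows). CCAAT on either strand stood in 42 of them (84.0%), against 33.8% of all windows, and TATAAA on the gene's strand in 21 (42.0%), against 7.59%. ATTTGCAT on either strand, the octamer that Oct1 binds in H2B promoters, stood in 13 (26.0%), against 1.6% of all windows, and in 7 of 14 windows of H2B genes. For the 28 mitosis genes that fell, 21 of 26 windows (80.8%) held CCAAT. These shares describe letters in gene families, are not evidence of binding and were not tested.

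Mitosis genes fell as a group of 28 among 46 tested, with none higher and a median log2 fold change of -0.77. In 42 of the 46 the Mysm1-/-Puma-/- libraries all lay below the Puma-/- libraries, against 8.22% of all tested genes. Mki67, the proliferation antigen Ki-67, had 509, 744 and 632 normalised CPM in Mysm1-/-Puma-/- cells, against 1249, 1292 and 1104 in Puma-/- cells, and fell by 0.95 on the log2 scale (SE 0.16, adjusted p = 0.0041). Ccna2, cyclin A2, had 38, 51.1 and 54.9 in Mysm1-/-Puma-/- cells, against 98.6, 99 and 89.7 in Puma-/- cells (log2 fold change -0.997, SE 0.17, adjusted p = 0.00359). Aspm, a spindle pole protein, had 82.1, 118 and 104 in Mysm1-/-Puma-/- cells, against 239, 192 and 167 in Puma-/- cells, B1 again being the lowest (log2 fold change -0.98, SE 0.16, adjusted p = 0.00279). Espl1, the separase that cuts cohesin, had 22.9, 21.9 and 23.2 in Mysm1-/-Puma-/- cells, against 43.4, 45.9 and 34.9 in Puma-/- cells (log2 fold change -0.87, SE 0.15, adjusted p = 0.00583). The count of 28 rested on single libraries, being 8 without C2, 11 without B1, 13 without C3 and 1 without both B1 and C2, where Mki67 reached an adjusted p of 0.0572.

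Fewer calls were made among other cell cycle genes. Of 43 DNA replication genes, 3 passed and fell, Tk1 (log2 fold change -0.93, SE 0.20, adjusted p = 0.0286), Rrm1 (log2 fold change -0.81, SE 0.19, adjusted p = 0.0379) and Pole (log2 fold change -0.63, SE 0.15, adjusted p = 0.0443), which make or polymerise deoxynucleotides. Each of these calls ended in at least 5 of 12 fits that left out 1 library, with the highest adjusted p without C2 (0.193 for Tk1, 0.22 for Rrm1 and 0.225 for Pole). The median over the 43 was -0.54, and 35 were lower at an unadjusted p under 0.05, against 5.99% of all genes. DESeq2 called 23 of them lower. Ccne1, cyclin E1, which starts S phase, had 4.64, 8.63 and 6.04 normalised CPM in Mysm1-/-Puma-/- cells, against 19.4, 12.3 and 14.2 in Puma-/- cells (log2 fold change -1.25, SE 0.26, adjusted p = 0.0189), and its call ended without B1 (adjusted p = 0.132), B5 or C2. E2f2, a transcription factor of cell cycle genes, had 6.55, 8.12 and 9.43 in Mysm1-/-Puma-/- cells, against 16.8, 17.2 and 19.9 in Puma-/- cells, and fell by 1.16 on the log2 scale (SE 0.20, adjusted p = 0.00452). Mybl2, which drives mitosis genes, was also called (log2 fold change -1.02, SE 0.17, adjusted p = 0.00359) and was picked for mention after its value was seen. Of 22 genes for G1 cyclins and CDK inhibitors, a list that leaves out Cdkn1a, 2 fell and none rose in edgeR, with 3 higher and 7 lower at an unadjusted p under 0.05 and a median log2 fold change of -0.23, while DESeq2 called 2 higher and 3 lower and voom 3 higher and 2 lower. Ccnd1, cyclin D1, did not pass in edgeR (log2 fold change 0.56, SE 0.14, adjusted p = 0.0629). In the list of Fanconi and homologous recombination genes, 2 of 31 fell, Brca1 (-0.65) and Exo1 (-0.78), and both calls ended without B1 (adjusted p = 0.159 and 0.225) and in at least 7 other such fits.

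**Figure D3:**
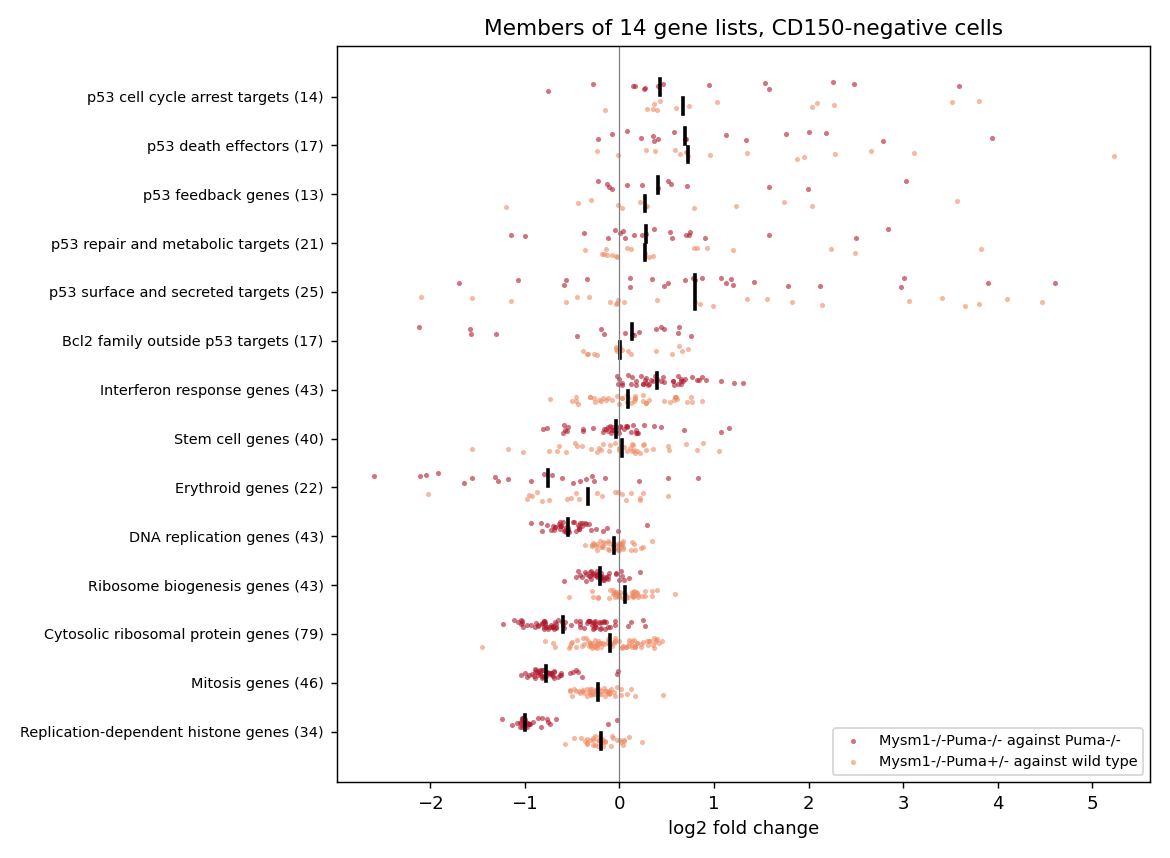
Log2 fold changes of the tested members of 14 gene lists (number of members in brackets), with Mysm1-/-Puma-/- against Puma-/- above in dark red and Mysm1-/-Puma+/- against wild type below in orange, and black ticks at the medians. The p53 lists reach to the right in both comparisons, while the medians of the histone and mitosis lists lie at -0.99 and -0.77 in the Puma-null mice and at -0.20 and -0.23 in the Puma-carrying mice.

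Ribosomal protein genes made up the third large group of falls. Of 79 genes for cytosolic ribosomal proteins, 35 fell and none rose, with a median log2 fold change of -0.60, and their summed share of the counts was 5.14%, 5.70% and 6.34% in Mysm1-/-Puma-/- libraries, against 7.96%, 7.09% and 7.64% in Puma-/- libraries. Rpl36a, of the large subunit, had 167, 219 and 238 normalised CPM in Mysm1-/-Puma-/- cells, against 524, 472 and 464 in Puma-/- cells, and fell by 1.23 on the log2 scale (SE 0.16, adjusted p = 0.000464). Rpl37a had 101, 117 and 127 in Mysm1-/-Puma-/- cells, against 271, 234 and 244 in Puma-/- cells (log2 fold change -1.12, SE 0.14, adjusted p = 0.000368). Rps15, of the small subunit, had 162, 215 and 217 in Mysm1-/-Puma-/- cells, against 444, 381 and 399.6 in Puma-/- cells (log2 fold change -1.04, SE 0.14, adjusted p = 0.00101). None of the 3 overlapped between groups. Rpl11, which binds Mdm2 when ribosome assembly fails, had 357, 468 and 513 in Mysm1-/-Puma-/- cells, against 789, 636 and 702 in Puma-/- cells (log2 fold change -0.67, SE 0.16, adjusted p = 0.0414), and its call ended in 9 of 12 fits that left out 1 library (adjusted p = 0.245 without C2). The count of 35 became 22 without C2, 22 without C5, 23 without B3 and 9 without both B1 and C2. Many of these genes have processed pseudogenes that share their reads, so single members are uncertain.

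Some genes of translation elongation fell too. Eef1g, a subunit of elongation factor 1, had 322, 399 and 464 normalised CPM in Mysm1-/-Puma-/- cells, against 1041, 941 and 859 in Puma-/- cells, and fell by 1.26 on the log2 scale (SE 0.16, adjusted p = 0.000388). Eef2, which moves the ribosome along the message, had 1503, 1805 and 1903 in Mysm1-/-Puma-/- cells, against 2966, 2539 and 2684 in Puma-/- cells (log2 fold change -0.65, SE 0.14, adjusted p = 0.0278), and was picked for mention after its value was seen. Eef1a1, the most abundant of them, did not pass (log2 fold change -0.28, SE 0.15, adjusted p = 0.552), and was also picked for mention after its value was seen. Of 43 ribosome biogenesis genes none passed in edgeR, DESeq2 or voom (7 at an unadjusted p under 0.05 in edgeR, all lower), and their median was -0.21.

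Histone and ribosomal protein genes are short, and the libraries also differed by gene length. The mean log2 gene length per read was 11.75 to 11.90 in Mysm1-/-Puma-/- libraries, against 11.64 to 11.66 in Puma-/- libraries. Without histone and ribosomal protein genes it was 12.01 to 12.11 in Mysm1-/-Puma-/- libraries, against 12.01 to 12.04 in Puma-/- libraries. Among genes that averaged at least 2 log2 CPM, those of up to 1000 bases had a median log2 fold change of -0.19, or -0.14 without histone and ribosomal protein genes, against 0.01 for genes over 4000 bases.  The part of gene length in the falls was not tested.

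Further falls were seen in genes of no shared list. Hnf4a, a nuclear receptor best known from liver, had 13.8, 19.6 and 15.6 normalised CPM in Mysm1-/-Puma-/- cells, against 48, 42.1 and 44.6 in Puma-/- cells, and fell by 1.46 on the log2 scale (SE 0.16, adjusted p = 0.000135). Mns1, a protein of meiosis and cilia, had 43.3, 59.5 and 74.4 in Mysm1-/-Puma-/- cells, against 179.9, 111 and 128 in Puma-/- cells (log2 fold change -1.24, SE 0.20, adjusted p = 0.00239). Nt5dc2 had 7.37, 10.3 and 10.5 in Mysm1-/-Puma-/- cells, against 29, 23.1 and 19.6 in Puma-/- cells (log2 fold change -1.35, SE 0.20, adjusted p = 0.00184). These genes were separated without overlap. Sapcd2 (log2 fold change -1.50, SE 0.32, adjusted p = 0.0247) fell, and its call ended without B1 (adjusted p = 0.154), B5 or C2. Trib2, a pseudokinase (log2 fold change -1.18, SE 0.26, adjusted p = 0.0305), and Spire1, an actin nucleator (log2 fold change -1.36, SE 0.32, adjusted p = 0.0449), fell with calls that ended in 7 and 8 of 12 fits that left out 1 library (adjusted p = 0.175 without B3 and 0.251 without C2).

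Interferon response genes were higher in many members but nearly all missed the threshold. Of 43, only Oas3, an antiviral sensor of double-stranded RNA, passed, with 72.5, 75.1 and 65.2 normalised CPM in Mysm1-/-Puma-/- cells, against 37.5, 48.2 and 49.9 in Puma-/- cells (log2 fold change 0.65, SE 0.15, adjusted p = 0.0419). That call ended in 9 of 12 fits that left out 1 library (adjusted p = 0.262 without C2). The median of the list was 0.40, and 21 members were higher at an unadjusted p under 0.05, against 5.06% of all genes, with none lower. DESeq2 called 4 higher and voom 5. Markers of plasmacytoid dendritic cells, which make interferon, summed to between 346 and 424 normalised CPM in Mysm1-/-Puma-/- libraries, against 259 to 297 in Puma-/- libraries. The 4 markers were Siglech, Bst2, Irf8 and Tcf4, and none was called. Tcf4 was the most abundant of them, and the sum is not a count of such cells. The part of these cells in the result was not tested.

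Lineage genes were mostly not called. None of 29 lymphoid priming genes passed in edgeR or DESeq2 (4 at an unadjusted p under 0.05 in edgeR), and voom called 1 higher. Flt3, the receptor of multipotent progenitors, had 599.8, 746 and 535 normalised CPM in Mysm1-/-Puma-/- cells and 635, 541 and 729 in Puma-/- cells, which overlapped (log2 fold change -0.02, SE 0.23, adjusted p = 0.995). Dntt, an early lymphoid polymerase, overlapped too, with 803, 1297 and 645 in Mysm1-/-Puma-/- cells and 1159, 868 and 1432 in Puma-/- cells (log2 fold change -0.33, SE 0.34, adjusted p = 0.855). Of 22 erythroid genes none passed in edgeR (9 at an unadjusted p under 0.05, all lower), the median was -0.75, and DESeq2 called 1 lower and voom 7. Gata1, the erythroid and megakaryocytic transcription factor, had 1.64, 1.05 and 5.05 in Mysm1-/-Puma-/- cells, against 13.3, 5.23 and 13.4 in Puma-/- cells, without overlap (log2 fold change -2.05, SE 0.66, adjusted p = 0.198). Klf1, which drives red cell genes, had 2.55, 2.88 and 5.15 in Mysm1-/-Puma-/- cells, against 15.3, 7.29 and 10.3 in Puma-/- cells, without overlap (log2 fold change -1.64, SE 0.65, adjusted p = 0.336). Mpo, of granulocytic precursors, ranged widely in Mysm1-/-Puma-/- libraries, with 405, 850.0 and 1234, against 1059.8, 702 and 812 in Puma-/- libraries (log2 fold change -0.05, SE 0.36, adjusted p = 0.993).

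Markers of other cell types moved with some of these results. Of the T cell markers 1 of 6 was called, Cd3g, with 0.636, 0.899 and 1.22 normalised CPM in Mysm1-/-Puma-/- libraries, against 4.1, 2.67 and 7.82 in Puma-/- libraries (log2 fold change -2.40, SE 0.52, adjusted p = 0.0247), a call that ended without B1, B3, C2 or C5 (adjusted p = 0.199 without C5). The T cell markers summed to between 39.7 and 54.9 in Mysm1-/-Puma-/- libraries, against 58.4 to 88.2 in Puma-/- libraries. The erythroid markers summed to between 90.6 and 110.2 in Mysm1-/-Puma-/- libraries, against 115 to 204 in Puma-/- libraries. Most of each erythroid sum was Tfrc, whose groups overlapped (log2 fold change -0.27, SE 0.26, adjusted p = 0.835). Tfrc had 80.5, 92.4 and 81.8 in Mysm1-/-Puma-/- cells and 109.9, 72.8 and 124 in Puma-/- cells. The T cell sums cover the 6 markers tested of 7 listed, and the erythroid sums the 6 tested of 8 listed. B cell markers summed to between 152 and 1388 in Mysm1-/-Puma-/- libraries, against 153 to 203 in Puma-/- libraries. Nearly all of that spread was Igj, the J chain of secreted antibodies, with 569, 1365 and 138 in Mysm1-/-Puma-/- cells, against 184, 150.1 and 129 in Puma-/- cells (log2 fold change 2.16, SE 0.57, adjusted p = 0.0814). The part of such cells in the results was not tested.

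The Mysm1 genotypes were also compared in mice that carried Puma, as Mysm1-/-Puma+/- against wild type, with no library shared between the comparisons. Mysm1 had 125, 102 and 78.7 normalised CPM in the Mysm1-/-Puma+/- libraries, against 109.9, 103 and 100.2 in the wild-type libraries (log2 fold change -0.03), so the groups overlapped, and counts over the whole gene check no genotype here either. In that comparison 184 genes were called (0.869%), 135 higher (0.638%) and 49 lower (0.231%). Of the genes that rose in Puma-null mice, 58 of 87 (66.7%) also rose there, which is 43.0% of the 135. Of the genes that fell, 10 of 198 (5.05%) also fell there, or 20.4% of the 49. The p53 lists had 33 members higher and none lower in the Puma-carrying mice, with a median of 0.59, beside 27 and 0.52 in the Puma-null mice. Cdkn1a differed by 3.59 in Puma-null mice and by 3.80 in Puma-carrying mice on the log2 scale, and the difference of the effects was -0.21 (SE 0.31, adjusted p = 0.899). For Bbc3 the effects were 2.18 and 2.28, with a difference of -0.10 (SE 0.38, adjusted p = 0.973). Eda2r had 3.94 and 5.22, with a difference of -1.28 (SE 0.48, adjusted p = 0.65), and none of these 3 differences passed. Over the 89 tested p53 list genes the median difference was -0.19, and none passed in edgeR. At an unadjusted p under 0.05, 8 of the 89 differed, all negative, against 1011 negative ones among 21168 tested genes. Ak1, with effects of 2.84 and 3.82, had a difference of -0.99 (SE 0.22, adjusted p = 0.42).

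**Figure D4:**
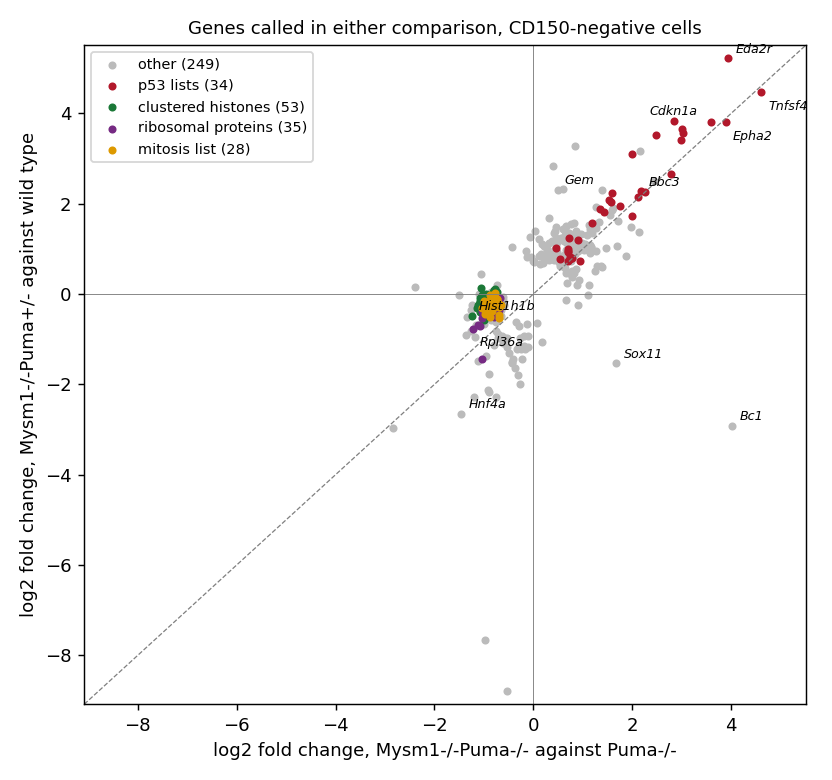
Log2 fold change of Mysm1-/-Puma-/- against Puma-/- (horizontal axis) and of Mysm1-/-Puma+/- against wild type (vertical axis) for the 399 genes called in either comparison, with equal effects on the dashed line. p53 list genes lie near the line or, like Eda2r, above it. Histone, ribosomal protein and mitosis genes lie mostly left of the line and near 0 on the vertical axis. Bc1 and Sox11 have opposite signs in the comparisons.

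For lists that fell, the medians differed between the Puma settings, and whether any of their genes passed the test of the difference depended on the tool. Clustered histone genes took 6.82%, 7.17% and 6.38% of the counts in Mysm1-/-Puma+/- libraries, against 8.00%, 8.08% and 7.29% in wild-type libraries, so only the Mysm1-/-Puma-/- libraries of the 12 lay below 5%. In the list of 34 histone genes the medians were -0.99 in Puma-null and -0.20 in Puma-carrying mice. The edgeR test of the difference called none of the 34 (31 at an unadjusted p under 0.05, all lower), as for Hist1h1b (-0.76 (SE 0.22, adjusted p = 0.617)) and Hist1h3d (-0.83 (SE 0.21, adjusted p = 0.526)). Over all genes that test called 3, or 0.0142%, of which 2 were higher (0.00945%) and 1 lower (0.00472%). DESeq2 called 75, all lower, of which 46 were clustered histone genes and 9 ribosomal protein genes, with an adjusted p given for 1169 genes only. voom called 63, 17 higher and 46 lower, of which 33 were clustered histone genes. limma-trend called 1, and none of the 34 histone genes (26 lower at an unadjusted p under 0.05). For mitosis genes the medians were -0.77 and -0.23, and none of 46 passed the test of the difference in edgeR (28 at an unadjusted p under 0.05, all lower) or voom. DESeq2 gave an adjusted p for only 8 of the 46 and called none of them, while 30 were lower at an unadjusted p under 0.05. For ribosomal protein genes the medians were -0.60 and -0.10, with none of 79 called in edgeR (41 at an unadjusted p under 0.05) or voom and 9 in DESeq2. The Puma-carrying comparison sets Puma+/- against Puma+/+, so the dose of Puma is part of the difference.

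**Figure D5:**
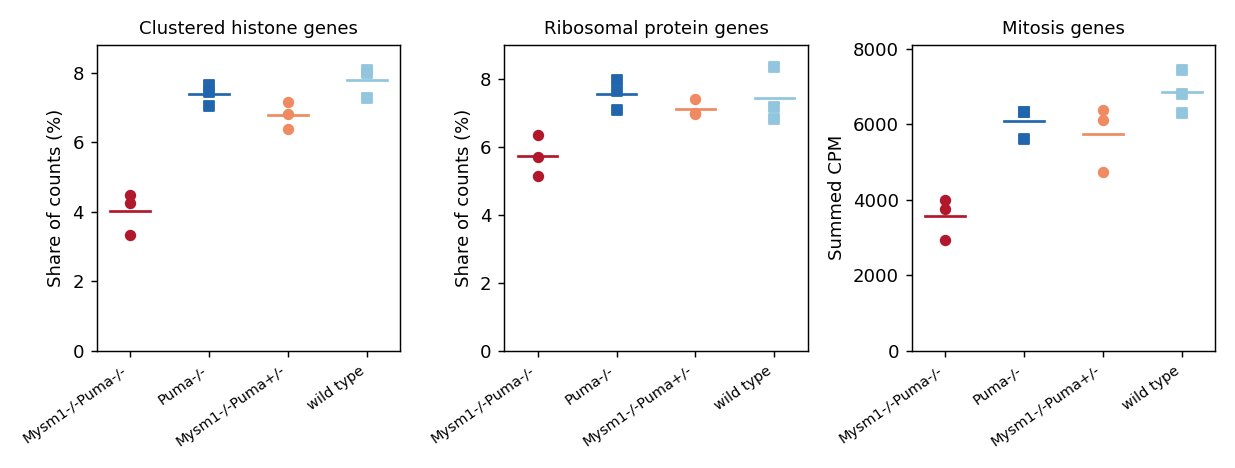
Share of all counts in clustered histone genes and in ribosomal protein genes (percent) and summed normalised CPM of the mitosis list, 1 point per CD150-negative library with bars at the group means, by genotype. The 3 Mysm1-/-Puma-/- libraries lie lowest in every panel, at 3.34% to 4.49% for histones and 5.14% to 6.34% for ribosomal proteins.

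The 3 genes whose Mysm1 effect differed with Puma in edgeR were Bc1, Sox11 and Gem. Bc1, a small noncoding RNA of neurons, had 4.41, 3.9 and 3.6 normalised CPM in Mysm1-/-Puma-/- libraries, against 0.0714, 0.305 and 0.354 in Puma-/- libraries, and 0.645, 0.329 and 0.577 in Mysm1-/-Puma+/- libraries, against 3.09, 2.03 and 6.63 in wild-type libraries. The difference of its effects was 6.93 (SE 0.87, adjusted p = 0.00726), and both effects were called, with opposite signs. Sox11, a transcription factor of embryonic tissues, had 7.66, 7.47 and 5.28 in Mysm1-/-Puma-/- cells, against 1.36, 3.1 and 1.91 in Puma-/- cells, and 1.96, 1.84 and 1.67 in Mysm1-/-Puma+/- cells, against 5.27, 4.67 and 5.9 in wild-type cells (3.21 (SE 0.48, adjusted p = 0.0274) for the difference). In both genes the Mysm1-/-Puma-/- and wild-type libraries were high and the other groups low. Gem, a small GTPase, had 37.1, 37.9 and 28.5 in Mysm1-/-Puma-/- cells, against 27.8, 22.4 and 23.5 in Puma-/- cells, and 115, 91.1 and 101 in Mysm1-/-Puma+/- cells, against 14.9, 20.8 and 26.3 in wild-type cells. Its difference was -1.82 (SE 0.27, adjusted p = 0.0265), with a call in the Puma-carrying mice and none in the Puma-null mice. All 3 calls ended in fits that left out 1 library, for Bc1 without A2 (adjusted p = 0.0535) or B1 (0.0505), for Sox11 without any 1 of 10 libraries (0.205 without B3) and for Gem without any 1 of 9 (0.107 without A1). Etv5 (-1.37 (SE 0.25, adjusted p = 0.222)), Hnf4a (1.19 (SE 0.23, adjusted p = 0.313)) and Serpinf1 (1.21 (SE 0.24, adjusted p = 0.375)) had the next smallest p among well expressed genes and did not pass in edgeR. voom called all 3 (adjusted p = 0.0179 for Etv5, 0.0365 for Hnf4a and 0.0252 for Serpinf1), edgeR called all 3 without A3 (adjusted p = 0.0492, 0.0489 and 0.0353, in the same order), and Hnf4a was also called with background as a covariate (0.0252).

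In CD150-positive cells the same genotypes gave 24 called genes (0.115%), 19 higher (0.0907%) and 5 lower (0.0239%), from 7 Mysm1-/-Puma-/- and 2 Puma-/- libraries. Of the 19, 17 also rose in CD150-negative cells, or 19.5% of the 87, and 3 of the 5 also fell. Cdkn1a lay between 16.96 and 28.08 normalised CPM in CD150-positive Mysm1-/-Puma-/- libraries (median 22.7), against 1.82 and 1.01 in Puma-/- libraries, a log2 fold change of 4.00 (SE 0.49, adjusted p = 0.000194). Bbc3 lay between 15.5 and 25.2 (median 18.6) in Mysm1-/-Puma-/- libraries, against 2.68 and 2.10 in Puma-/- libraries (3.01 (SE 0.30, adjusted p = 3.41e-05)). Psrc1 lay between 53.4 and 91.3 (median 74.9) in Mysm1-/-Puma-/- libraries, against 17.2 and 10.5 in Puma-/- libraries (2.37 (SE 0.27, adjusted p = 0.000114)). Rpl36a lay between 226 and 326 (median 273) in Mysm1-/-Puma-/- libraries, against 676 and 558 in Puma-/- libraries (-1.19 (SE 0.18, adjusted p = 0.00475)), and was 1 of 2 ribosomal protein genes called. None of these 4 genes overlapped between genotypes in either gate. The fit without the P and W libraries (P1, P2, P3 and W1) gave 13 calls in the CD150-positive gate, all higher. The call of Rpl36a therefore ended in that fit.

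Histone and mitosis genes were not called in CD150-positive cells. The median log2 fold changes there were -0.32 for the 34 histone genes and -0.25 for the mitosis genes, beside -0.99 and -0.77 in CD150-negative cells. The edgeR test of the difference between gates called none of 21830 genes (1661 at an unadjusted p under 0.05, or 7.61%), and DESeq2 called 6, all higher. For Hist1h1b the difference was -0.62 (SE 0.34, adjusted p = 0.659), and for Mki67 it was -0.78 (SE 0.28, adjusted p = 0.648). Ak1 (1.36 (SE 0.28, adjusted p = 0.367)), Mmrn2 (2.78 (SE 0.61, adjusted p = 0.367)), Igf2bp2 (1.76 (SE 0.38, adjusted p = 0.367)) and Actn4 (-1.02 (SE 0.24, adjusted p = 0.555)) had the smallest p among well expressed genes. The 2 Puma-/- libraries of the CD150-positive gate limit the precision of these differences, and libraries of both gates may come from the same mice.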

How the data were processed

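RNA from sorted marrow cells (10 ng per library) was depleted of ribosomal RNA, made into stranded libraries and sequenced as paired reads of 50 bases, per the labels. The submitters' processing notes name Trimmomatic 0.33, TopHat2 2.0.9, Bowtie 1.0.0, featureCounts, edgeR, R 3.4.2 and the mm9 build. The strand setting of the counting and its treatment of reads with several matches are not given in the sources used here. The authors deposited raw counts per gene for each library and a table of CPM (counts scaled to library size) for 12578 genes.

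Counts of the 12 CD150-negative libraries were fitted by genotype group with edgeR 4.0.16 in R 4.3.3 (TMM scaling, filterByExpr, quasi-likelihood F test, Benjamini-Hochberg adjustment over all genes tested, threshold 0.05, no replicate block). The SE is the size of the log2 fold change divided by the root of F. The CD150-positive comparison used the 17 libraries of that gate, and the difference between gates all 29. Normalised CPM are TMM-scaled. Scripts were tested on simulated data. DESeq2 1.42.0, limma 3.58.1 (voom, and limma-trend on the authors' CPM, as log2 after adding 1), other scalings and filters, a background covariate, a replicate block and leaving out libraries were tried as alternatives.

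Named genes are Mysm1, Bbc3, the 12 largest rises and falls among called genes with mean log2 CPM of at least 2 and no overlap, leaving out clone names, up to 4 called members per list with the smallest p, and the leading genes of each difference between effects; others named have list membership or are said to be picked after their values were seen. The members and lists were chosen with earlier results of these data known. Gene lengths come with the deposited counts, gene coordinates from GENCODE vM1, and promoter sequences from RefSeq.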

Additional observations from a re-analysis of the deposited data

Results flagged for a closer look

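In 3 genes the effect of Mysm1 loss in Puma-null CD150-negative cells differed from that in Puma-carrying cells by the edgeR interaction test. The log2 difference of the effects was 6.93 for Bc1, 3.21 for Sox11 and -1.82 for Gem (adjusted p = 0.00726, 0.0274 and 0.0265). Bc1 stayed at or below 0.65 normalised CPM in all Puma-/- and Mysm1-/-Puma+/- libraries.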

How the results depend on the processing

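Of the 58 genes named by the rule, none changed direction under any alternative, and 27 of the 51 called ones kept their call in all of them. The 285 calls (30.5% higher) became 639 with DESeq2, 507 with background reads as a covariate (45.8% higher), 466 with limma-trend on the deposited CPM, 446 with voom (41.0% higher), 250 with the 2 groups fitted alone (42.0% higher) and 97 without B1 and C2, and ranged from 148 to 465 with 1 library left out. RLE scaling gave 303 calls, TMM computed without cell cycle, histone and ribosomal protein genes 268 (38.1% higher), and no filter 301. The alternatives without B1 and C2 and with TMM on other genes were chosen after seeing the data.

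The difference between Puma settings (3 calls) had 75 with DESeq2, 63 with voom, 5 with the covariate, 1 with limma-trend, 0 without B1 and C2, and 0 to 23 with 1 library left out. The difference between gates had 6 with DESeq2, and the CD150-positive comparison (24 calls) 107 with DESeq2 and 13 without the P and W libraries, all higher. Without B1 and C2, mitosis calls went to 1 and ribosomal protein calls to 9; leaving out 1 library gave 8 to 38 and 22 to 41. The p53 count ranged from 21 to 35 and the histone count from 17 to 32 over all alternatives.

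The compared groups share replicate numbers 3 and 5 only. Their deviations correlated at -0.261 (B3 with C3) and -0.151 (B5 with C5), so the numbers are not treated as pairs. Over the 4 groups, same-numbered libraries ranged from -0.485 (A3 with C3) to 0.334 (A3 with D3). Libraries of unlike number ranged from -0.589 (B1 with D3) to 0.581 (B1 with D4). With the replicate block, the 285 calls became 81, with 0 for the difference between Puma settings, 17 for histones, 0 for mitosis and 7 for ribosomal proteins. The cause of these changes was not tested. At these depths counting error is small beside the spread between libraries, except for genes near 1 CPM.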
